A study of Homo sapiens with 3 samples.

Results

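Insulin-rich cells were a small minority of a human stem-cell-derived alpha cell preparation. They were defined as barcodes with at least 1000 detected genes, at most 20% mitochondrial unique molecular identifiers (UMIs), INS making up at least 1% of all UMIs, and more INS than SST UMIs. By this rule 82 of 3653 barcodes that passed the gene and mitochondrial limits were insulin-rich, a share of 2.24% (95% Clopper-Pearson interval 1.79% to 2.78%; this and later intervals cover counting error only). The 3 libraries, labelled SC-A replicates 1 to 3, were made with 10x Genomics 3' v3 chemistry from HUES8 cells. HUES8 is a human embryonic stem cell line long established in culture, and here it had been taken to SC-alpha cells by a published differentiation protocol and dispersed from clusters. No other treatment, genotype or time point was given for any library. The insulin-rich cells were set beside GCG-only cells, barcodes of the same libraries with GCG at 5% or more and INS under 0.1% of UMIs, of which there were 518, 467 and 822 in replicates 1, 2 and 3.

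Islet beta cells make insulin, and islet alpha cells make glucagon from the GCG precursor. In the adult human islet the beta cell is known for the transcription factors PDX1, NKX6-1 and MAFA and for co-secreting the peptide encoded by IAPP, whereas the alpha cell is known for IRX1 and IRX2. During human pancreas development and in stem cell cultures, cells that hold insulin and glucagon together are well known, and are called polyhormonal. In the matrices INS was gene ENSG00000254647 (GRCh38 chr11:2159779-2161341, minus strand) and GCG was ENSG00000115263 (chr2:162142873-162152404, minus strand). IAPP was ENSG00000121351 (chr12:21354959-21379978, plus strand), PDX1 was ENSG00000139515 (chr13:27920020-27926231, plus strand) and NKX6-1 was ENSG00000163623 (chr4:84491987-84498450, minus strand).

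The upstream regions of the 2 hormone genes are shown because transcripts of both were counted in the same barcodes. Each is the stretch of 250 bases before the RefSeq gene start in GRCh38.p14, 5′ to 3′ on the gene's own strand, at chr11:2161210-2161459 for INS and chr2:162152248-162152497 for GCG. Capitals mark TAAT, the core letters that islet homeodomain factors such as PDX1 are known to bind, and CATCTG, an E-box of the kind bound by NEUROD1, each on either strand.
INS: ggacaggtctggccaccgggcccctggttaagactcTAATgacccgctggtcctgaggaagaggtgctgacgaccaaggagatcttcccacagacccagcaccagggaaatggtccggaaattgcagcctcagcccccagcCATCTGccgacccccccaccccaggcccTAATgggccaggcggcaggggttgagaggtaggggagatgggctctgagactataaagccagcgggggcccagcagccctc
GCG: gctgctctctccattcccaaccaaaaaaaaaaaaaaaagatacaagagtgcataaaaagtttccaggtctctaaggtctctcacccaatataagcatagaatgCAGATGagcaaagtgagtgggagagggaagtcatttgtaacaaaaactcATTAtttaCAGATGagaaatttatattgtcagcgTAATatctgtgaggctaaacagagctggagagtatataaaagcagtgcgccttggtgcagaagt
TAAT occurred 2 times in the INS stretch and 2 times in the GCG stretch, and 47.4% of 35116 RefSeq promoters of the same length held it at least once and 27.6% at least 2 times. CATCTG occurred 1 time in INS and 2 times in GCG, and 12.2% of the promoters held at least 1 copy and 1.18% at least 2. The 2 motifs did not overlap each other. These matches describe letters and not binding.

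The deposited libraries held 2850, 2576 and 4257 barcodes, of which 1160, 1027 and 1466 passed the gene and mitochondrial limits, and no barcode that passed was shared between libraries. Insulin-rich cells numbered 25 of 1160 (2.16%), 51 of 1027 (4.97%) and 6 of 1466 (0.409%), with a mean over libraries of 2.51 ± 2.30% (SD, n = 3). Replicate 3 therefore stood apart with 6 insulin-rich cells, too few to enter the tests below, and its values are given as a description. Median depth was 17951, 19807 and 13976.5 UMIs in insulin-rich cells and 15737.5, 21700 and 10456.5 UMIs in GCG-only cells. The doublet caller Scrublet marked 1 insulin-rich barcode and 32 of 1807 GCG-only barcodes. The sums over cells rested on 502046, 1024331 and 86336 UMIs in insulin-rich cells and 8844785, 10103039 and 9025916 UMIs in GCG-only cells.

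Most insulin-rich cells were polyhormonal, in the sense that GCG made up 5% or more of their UMIs as well. INS took a median of 2.06%, 1.56% and 1.35% of UMIs in the insulin-rich cells of replicates 1, 2 and 3, against 0.0309%, 0.0379% and 0.00973% in GCG-only cells, and the highest insulin-rich cells reached 8.75%, 14.2% and 13.5%. GCG took a median of 13.8%, 11% and 5.50% in insulin-rich cells and 13.0%, 15.0% and 10.5% in GCG-only cells. The cells were chosen by their INS, SST and GCG values, so these levels describe the cell sets and were not tested. In the 8, 3 and 56 collagen-expressing cells of replicates 1, 2 and 3 the median GCG share was 0.107%, 0.134% and 0.0739%. These medians lay below those of insulin-rich cells in each library, while the highest collagen cell of replicate 3 reached 5.54%. The part of free RNA in these shares was not tested.

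Of the 82 insulin-rich cells, 68 held GCG at 5% or more of UMIs (82.9%, 95% Clopper-Pearson interval 73.0% to 90.3%), which was 23 of 25, 42 of 51 and 3 of 6 cells in replicates 1, 2 and 3. The mean over libraries was 74.8 ± 22.0% (SD, n = 3). Among all barcodes that passed the limits, 2628 of 3653 held GCG at 5% or more (71.9%), which was 73.6%, 83.7% and 62.3% by library, so the share in insulin-rich cells lay above it in replicate 1 and not in replicates 2 and 3. A further 7 cells held GCG between 1% and 5%, and the remaining 7, 1, 5 and 1 by library, held under 1%. INS UMIs outnumbered GCG UMIs in 10 cells (3, 6 and 1 by library). INS reached 2% in 31 cells and 5% in 9 cells. SST was at 0.1% or more in 28 of 82 insulin-rich cells (34.1%) and 293 of 1807 GCG-only cells (16.2%), and at 1% or more in 1 insulin-rich cell. The ghrelin and pancreatic polypeptide hormones were near their floor: GHRL stood at 17.9, 4.88 and 0 CPM (counts scaled to a total of 1000000 per cell set) in insulin-rich cells and 9.84, 13.6 and 6.98 CPM in GCG-only cells, with 44.4% of its replicate 1 UMIs in 1 cell, and PPY had 1 UMI in all insulin-rich cells together. PYY gave 3, 1 and 0 UMIs and NPY 3, 0 and 0 UMIs in insulin-rich cells. Among the hormones other than INS, GCG was the most abundant in the insulin-rich cells of each library. The rule had left out barcodes with at least as many SST as INS UMIs, which bears on this ranking.

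The limit of 1% lay within a continuous range of INS shares. The insulin-rich cells nearest to it held 1.01%, 1.01%, 1.02%, 1.02% and 1.02% INS, and the nearest barcodes below it held 0.994%, 0.988%, 0.964%, 0.962% and 0.962%. Between 1.0% and 1.1% lay 12 insulin-rich cells, and 15 barcodes lay between 0.9% and 1.0%. Insulin-rich cells carried 37.2%, 43.4% and 33.7% of all INS UMIs of the barcodes that passed the limits in replicates 1, 2 and 3, so that most INS UMIs lay in barcodes outside the insulin-rich set. A further 10 barcodes held INS at 1% or more with at least as many SST UMIs (1, 8 and 1 by library) and were left out.

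**Figure D1:**
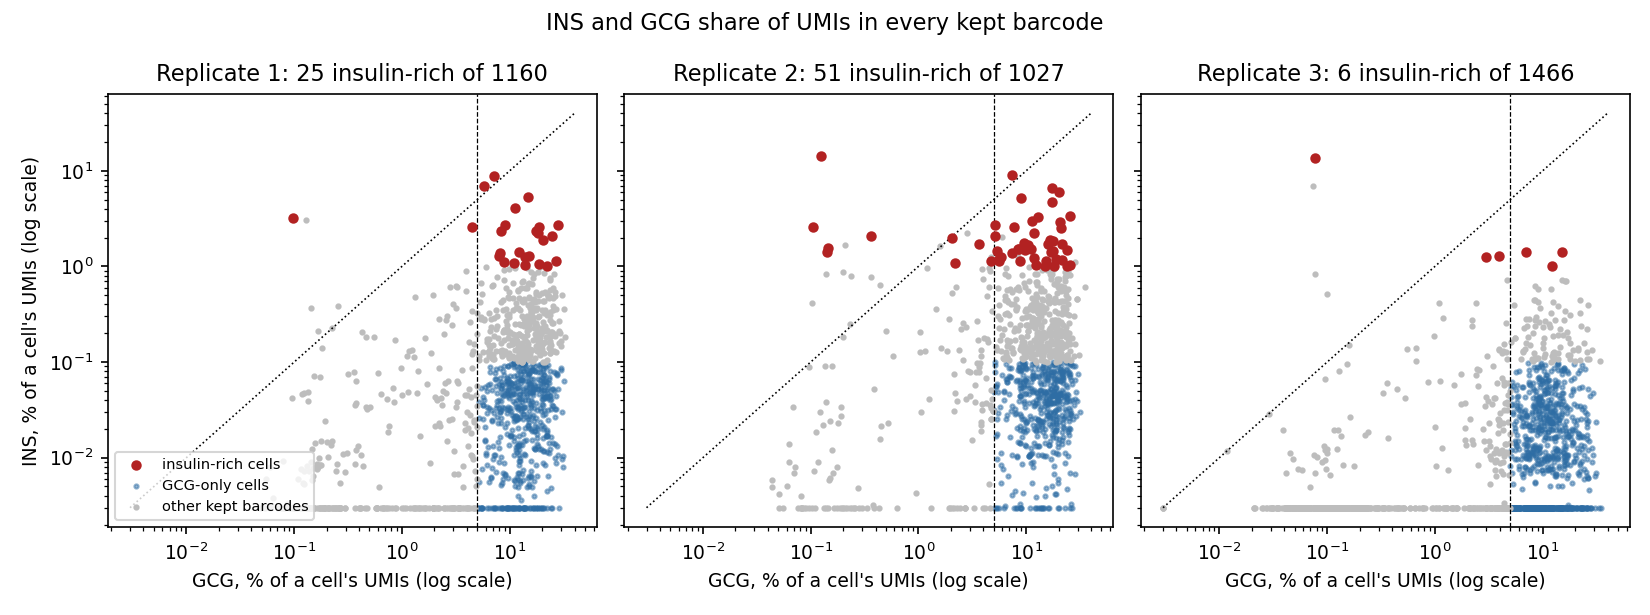
Share of UMIs from GCG (x axis, log scale, percent) and from INS (y axis, log scale, percent), 1 point per barcode and 1 panel per library. Insulin-rich cells are red, GCG-only cells blue and other barcodes grey. Values of 0 are drawn at 0.003%. The vertical dashed line marks GCG at 5% and the dotted line equal INS and GCG. On or to the right of the dashed line lie 68 of 82 insulin-rich cells, and 10 lie above the dotted line, on its INS side.

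IAPP, PDX1, NKX6-1 and MAFA transcripts were sparse in insulin-rich cells. At least 1 IAPP UMI was found in 10 of 82 insulin-rich cells (12.2%) and 64 of 1807 GCG-only cells (3.54%), and in 0 of 67 collagen cells, which allows a share of up to 4.48%. By library the insulin-rich shares for IAPP were 12.0%, 11.8% and 16.7%, a mean of 13.5 ± 2.76% (SD, n = 3). PDX1 was found in 24 insulin-rich cells (29.3%), 217 GCG-only cells (12.0%) and 0 of 67 collagen cells. PDX1 was seen in 5 of 25, 17 of 51 and 2 of 6 insulin-rich cells by library, a mean of 28.9 ± 7.70% (SD, n = 3), against 11.6%, 20.1% and 7.66% in GCG-only cells. Median depth over all libraries was 19408.5 UMIs in insulin-rich cells, 13849 in GCG-only cells and 9256 in collagen cells. After each cell was thinned to 5000 UMIs, which left 76 insulin-rich, 1694 GCG-only and 61 collagen cells, the IAPP shares were 7.89% and 1.59% and the PDX1 shares 10.5% and 4.07% in insulin-rich and GCG-only cells. By library the thinned PDX1 shares were 0%, 15.2% and 16.7% in insulin-rich cells and 3.83%, 4.51% and 3.99% in GCG-only cells. The thinned PDX1 share was thus not higher in replicate 1, and that of replicate 3 is 1 of 6 cells. Both genes were found in a minority of insulin-rich cells at either depth.

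NKX6-1 was found in 2 of 82 insulin-rich cells (2.44%), 11 of 1807 GCG-only cells (0.609%) and 2 of 67 collagen cells (2.99%). After thinning it was found in 2 of 76 insulin-rich cells (2.63%), 0.295% of GCG-only cells and 1 of 61 collagen cells (1.64%). The order of insulin-rich and collagen cells thus turned with thinning, and rested on 1 or 2 cells per set. MAFA had no UMI in any insulin-rich cell (0 of 82), and 0.387% of GCG-only cells had 1 or more. The alpha cell factors were frequent. IRX1 was found in 79.3% of insulin-rich cells and 74.8% of GCG-only cells, against 20.9% of collagen cells. IRX2 was found in 98.8% of insulin-rich cells and 95.6% of GCG-only cells, against 35.8% of collagen cells. IAPP, PDX1 and NKX6-1 were detected together in 2 insulin-rich cells and 1 GCG-only cell, and none of the 3 was seen in 53 insulin-rich cells (64.6%) and in 84.5% of GCG-only cells. INS was the rule, so its presence in every insulin-rich cell was fixed in advance and is no check of the label. IAPP, PDX1, NKX6-1 and MAFA were each found in a minority of the cells or in none, so no beta cell name was given to the set. ERO1B, also on the beta cell list, was found in 72 of 82 insulin-rich cells (87.8%), 86.5% of GCG-only cells and 10.4% of collagen cells.

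**Figure D2:**
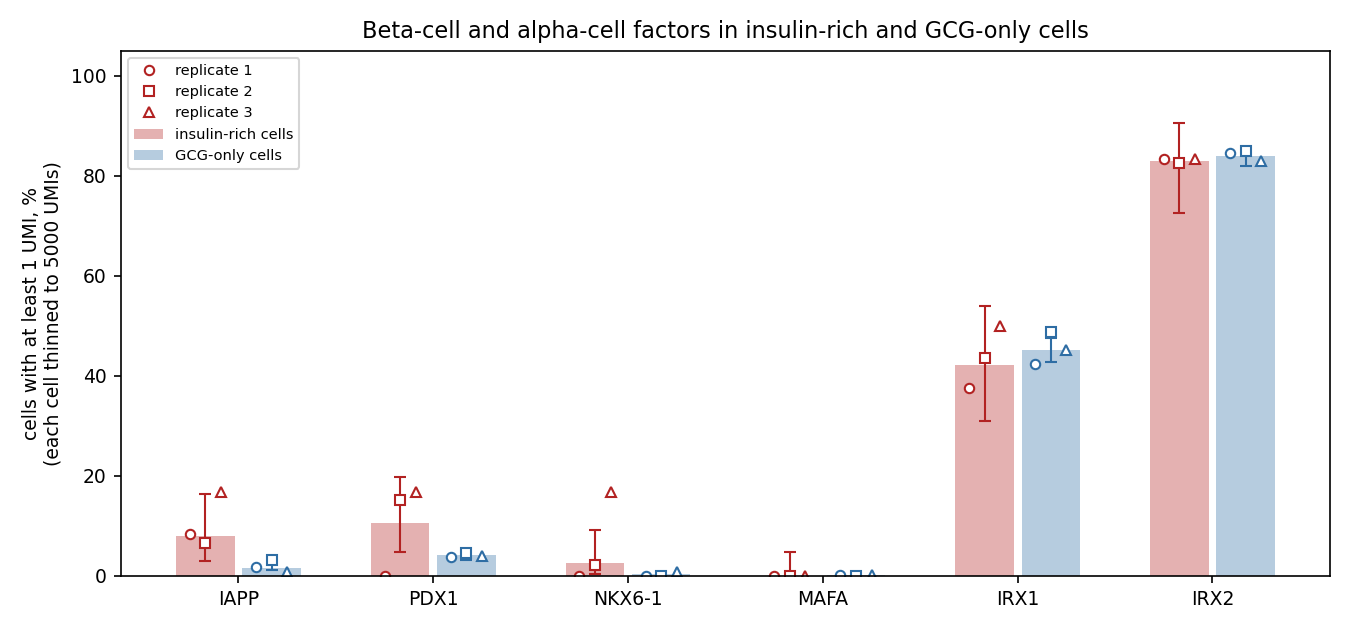
Share of cells with at least 1 UMI (y axis, percent) of beta cell and alpha cell genes in insulin-rich and GCG-only cells, each cell thinned to 5000 UMIs. Bars are all libraries together with 95% Clopper-Pearson intervals for counting error alone, and points are single libraries; IAPP and PDX1 bars stay at 7.89% and 10.5% in insulin-rich cells while the IRX2 bars stand at 82.9% in insulin-rich and 83.9% in GCG-only cells.

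The summed levels of IAPP and NKX6-1 rested largely on single cells. IAPP stood at 990, 13.7 and 5374 CPM in insulin-rich cells of replicates 1, 2 and 3, against 29.7, 6.24 and 2.55 CPM in GCG-only cells. In each library the insulin-rich cell with most IAPP contributed 99.2%, 42.9% and 100% of that sum. In replicate 1 that cell, with 493 IAPP UMIs, had GCG at 13.8% and INS at 1.05%, and in replicate 3 it was the cell with the highest INS share. PDX1 stood at 15.9, 23.4 and 69.5 CPM in insulin-rich cells and 7.80, 11.9 and 7.76 CPM in GCG-only cells, higher in each library, and 1 cell gave 37.5%, 16.7% and 83.3% of the PDX1 UMIs in replicates 1, 2 and 3. NKX6-1 gave 0, 4 and 2 UMIs in insulin-rich cells, with all UMIs of a library in 1 cell. PCSK1, the convertase that acts on proinsulin in beta cells, stood at 0, 10.7 and 313 CPM in insulin-rich cells and 4.64, 2.47 and 10.9 CPM in GCG-only cells. All 27 PCSK1 UMIs of replicate 3 lay in 1 cell, and 1 cell of replicate 2 held 9 UMIs. PCSK1 was found in 4 of 82 insulin-rich cells (4.88%) and in 6.53% of GCG-only cells, so it was not more frequent across the set.

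The 10 insulin-dominant cells, those with more INS than GCG UMIs, were not of 1 kind. In 1 cell of replicate 2, INS took 14.2% and GCG 0.124% of UMIs, and 4 NKX6-1, 10 PAX4, 9 PCSK1 and 70 DLK1 UMIs were counted together with 3 IAPP and 1 PDX1 UMI, while IRX2 gave 1 UMI. In the single insulin-dominant cell of replicate 3, INS took 13.5% and GCG 0.078%, with 464 IAPP, 5 PDX1, 2 NKX6-1, 27 PCSK1 and 67 DLK1 UMIs and 2 IRX2 UMIs. These 2 cells were the only insulin-rich cells that held all 3 of IAPP, PDX1 and NKX6-1. DLK1 encodes a Notch-related membrane protein found in human beta cells, and PAX4 a factor of the beta cell lineage.

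The other insulin-dominant cells differed from that pair. In 3 of them both hormones were high, with 2255 INS and 1829 GCG UMIs and 1202 INS and 1009 GCG UMIs in 2 cells of replicate 1, and 3307 INS and 2754 GCG UMIs in a cell of replicate 2. These 3 cells held 5, 6 and 11 IRX2 UMIs, 0 PDX1 UMIs and at most 1 IAPP UMI. A replicate 1 cell with 660 INS and 20 GCG UMIs held 151 SST UMIs and 9 IRX2 UMIs. In a replicate 2 cell with 499 INS and 46 GCG UMIs there were 6 IAPP, 4 PDX1 and 2 PAX4 UMIs next to 5 IRX1 and 21 IRX2 UMIs, so beta and alpha cell factors were counted in 1 barcode. The remaining 3 cells, all from replicate 2, held 761, 104 and 278 INS UMIs with 31, 18 and 28 GCG UMIs, and 2, 0 and 1 IAPP UMIs. Scrublet marked none of the 10. With 3, 6 and 1 insulin-dominant cells per library, no library reached the 10 cells required for a sum, so insulin-dominant and other insulin-rich cells were not tested against each other.

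**Figure D3:**
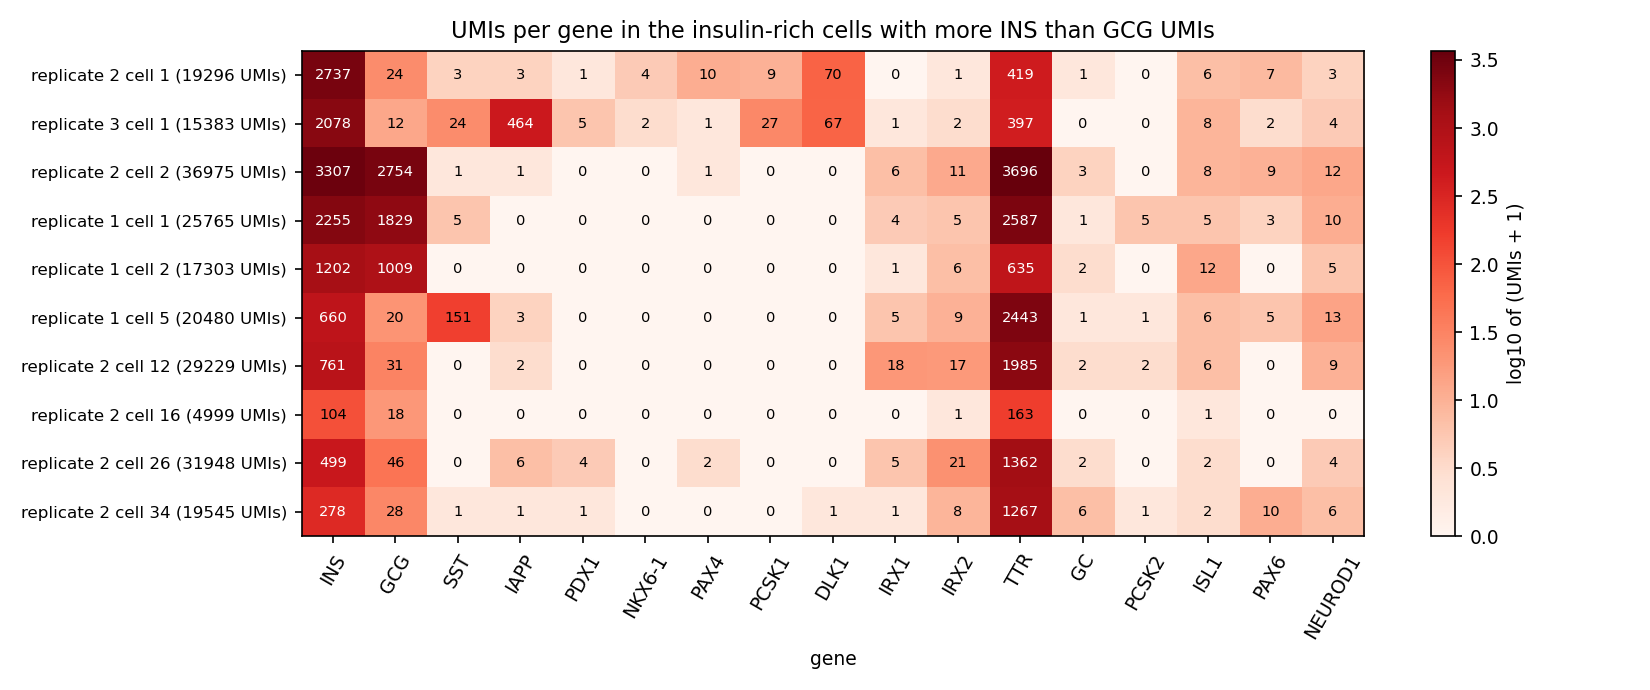
Heat map of UMIs per gene (columns) in each of the 10 insulin-rich cells with more INS than GCG UMIs (rows, named by library and cell, with total UMIs), coloured by log10 of UMIs plus 1. The 2 cells with 70 and 67 DLK1 UMIs are those with NKX6-1 UMIs, and 3 cells hold 1009 to 2754 GCG UMIs beside their INS.

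Across all genes, few differed between insulin-rich and GCG-only cells, and none of the 11 tested beta cell factors was among them. UMIs were summed per library and cell set, and the 4 sums of replicates 1 and 2 were tested with edgeR (quasi-likelihood, blocked by library), with Benjamini-Hochberg adjustment over 12275 genes. At adjusted p under 0.05, 113 genes were higher in insulin-rich cells (0.921% of genes tested) and 57 were lower (0.464%). The block leaves 1 residual degree of freedom per gene. Without it the calls dropped to 12 genes higher and 4 lower, and with DESeq2's Wald test to 16 higher and 8 lower. With replicate 1 or replicate 2 left out and the 6 cells of replicate 3 in its place, 17 and 11 genes were higher and 8 and 6 lower. The labels do not say whether the replicates came from separate differentiations, so the spread between these libraries may be technical. The p-values apply to these libraries only, and a small value did not mean that replicates 1 and 2 agreed. DLK1 was called higher (edgeR adjusted p = 0.000314), at 21.9 CPM in insulin-rich and 36.7 CPM in GCG-only cells of replicate 1. In replicate 2 DLK1 stood at 79.1 CPM in insulin-rich cells and 29.6 CPM in GCG-only cells. The spread between single cells of a library did not enter the test, which used sums. In replicate 3, which the test did not use, 73 of the 113 higher genes were also higher (64.6%, beside 41.5% of all genes tested) and 42 of the 57 lower genes were also lower (73.7%, beside 58.5%). Called genes had 1 sign in all 3 libraries for 111 of 170.

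Of the genes called higher, 5 were also called without the block, by DESeq2 and after thinning, namely SLC30A8, PDK4, SCG2, TMEM190 and GPX3, and so were 3 of the genes called lower, namely AFP, GC and APOH. This group of 8 was chosen after its values were seen. Over 15 alternative settings PDK4, AFP, GC and APOH were called in 15 and SLC30A8 in 14, whereas SCG5 was called in 2 and CACNA1A and NEUROD1 in 4 each. SLC30A8, which encodes the zinc transporter of hormone granules, stood at 153 and 154 CPM in insulin-rich cells of replicates 1 and 2, against 50.4 and 66.7 CPM in GCG-only cells, and in replicate 3 at 69.5 CPM in insulin-rich cells, against 73.0 CPM in GCG-only cells. It rose by 1.38 ± 0.13 on the log2 scale (SE, edgeR adjusted p = 2.28e-22), and was found in 81.7% of insulin-rich cells, 47.4% of GCG-only cells and 1.49% of collagen cells. These shares are over all libraries and not thinned, and the 3 sets differed in median depth (19408.5, 13849 and 9256 UMIs). SLC30A8 was thus higher in replicates 1 and 2, and not in the 6 cells of replicate 3. GC, which encodes vitamin D-binding protein and is an alpha cell marker, stood at 374, 336 and 394 CPM in insulin-rich cells, against 1039, 687 and 582 CPM in GCG-only cells. It fell by 1.19 on the log2 scale (SE 0.10, edgeR adjusted p = 1.22e-27), and its 3 insulin-rich values all lay below its 3 GCG-only values.

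Of 12 secretory granule genes tested, 5 were higher and 1 lower (SCGN), beside 0.921% and 0.464% of all genes, with a median log2 difference of 0.21 against -0.01 over all genes. SCG2, a granin, stood at 408 and 392 CPM in insulin-rich cells and 240 and 208 CPM in GCG-only cells (log2 0.88 ± 0.10 SE, edgeR adjusted p = 1.7e-15), with 33.2% of its replicate 1 UMIs from 1 cell, and in replicate 3 it stood at 278 CPM in insulin-rich cells, against 365 CPM in GCG-only cells. SCG2 was therefore higher in 2 of 3 libraries. ERO1B, an endoplasmic reticulum oxidase known for proinsulin folding, was at 394, 391 and 510 CPM in insulin-rich cells, against 228, 259 and 225 CPM in GCG-only cells (log2 0.71 ± 0.10 SE, edgeR adjusted p = 1.07e-09). ERO1B was higher in each of the 3 libraries, and no library's values overlapped those of the other set. VGF, a granule peptide precursor, rose by 0.96 ± 0.16 (SE, edgeR adjusted p = 2.85e-06), at 71.7 and 81.0 CPM in insulin-rich cells and 39.7 and 41.3 CPM in GCG-only cells. It was lower in replicate 3, at 23.2 CPM in insulin-rich cells, against 49.9 CPM in GCG-only cells. PTPRN was the fifth granule gene called higher.

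Among 10 prohormone processing genes tested, 3 were higher and 0 lower, with a median of 0.38. CPE, the carboxypeptidase that trims prohormones, was at 1092, 1070 and 1124 CPM in insulin-rich cells and 826, 788 and 849 CPM in GCG-only cells (log2 0.46 ± 0.09 SE, edgeR adjusted p = 0.000148). PCSK2, the convertase that releases glucagon and also cuts proinsulin, was at 141 and 70.3 CPM in insulin-rich cells and 85.7 and 53.0 CPM in GCG-only cells (log2 0.60 ± 0.15 SE, edgeR adjusted p = 0.00556), and in replicate 3 at 34.7 CPM in insulin-rich cells, against 102 CPM in GCG-only cells. SCG5, the chaperone of PCSK2, rose by 0.33 ± 0.09 (SE, edgeR adjusted p = 0.0435). CPE was higher in all 3 libraries, while PCSK2 was higher in 2.

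Of 16 genes of the unfolded protein response, which helps secretory cells fold cargo, 8 were higher and 0 lower, beside 0.921% and 0.464% of all genes, with a median of 0.50. They were PDIA4, DNAJB9, CRELD2, MANF, HSPA5, XBP1, SDF2L1 and HSP90B1. None of these 8 was among the 16 genes that DESeq2 called higher. MANF, a secreted reticulum protein, stood at 125, 124 and 197 CPM in insulin-rich cells and 85.2, 67.9 and 94.1 CPM in GCG-only cells (log2 0.77 ± 0.14 SE, edgeR adjusted p = 4.63e-06). CRELD2 was at 93.6, 70.3 and 81.1 CPM in insulin-rich cells and 47.8, 45.3 and 56.3 CPM in GCG-only cells (log2 0.80 ± 0.16 SE, edgeR adjusted p = 0.000173). Both were higher in each library with no overlap between the sets. PDIA4, a disulfide isomerase, rose by 0.99 ± 0.22 (SE, edgeR adjusted p = 0.000957). It stood at 31.9, 49.8 and 23.2 CPM in insulin-rich cells and 22.5, 21.8 and 25.4 CPM in GCG-only cells, and so was not higher in replicate 3. DNAJB9, a reticulum co-chaperone, rose by 0.87 ± 0.22 (SE, edgeR adjusted p = 0.00683) although replicate 1 stood at 19.9 CPM in insulin-rich cells and 24.4 CPM in GCG-only cells. Among 14 immediate early and heat shock genes, which respond to handling, 0 were called, with a median of -0.06.

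Few islet transcription factors passed the test. None of the 11 tested genes of the beta cell factor list passed, with a median of 0.31, and MAFA, NKX6-1, SIX2 and SIX3 had too few UMIs to be tested. PDX1 had a log2 difference of 1.01 ± 0.34 (SE, edgeR adjusted p = 0.131). PAX4 had 1.78 ± 0.57 (SE, edgeR adjusted p = 0.0997), with 62.5% of its replicate 2 UMIs in 1 cell. A further 8 ranged between -0.12 for NKX2-2 and 0.54 for RFX3, with MNX1 at -0.03, TSHZ1 at 0.04, ESRRG at -0.07, RFX6 and PAX6 at 0.31 each and HOPX at 0.44. Signs of PAX4, MNX1, TSHZ1, ESRRG, NKX2-2, RFX6 and PAX6 turned under at least 1 alternative.

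On the alpha cell side, IRX1 stood at 122, 154 and 151 CPM in insulin-rich cells and 127, 147 and 124 CPM in GCG-only cells, and IRX2 at 412, 423 and 278 CPM in insulin-rich cells and 410, 457 and 406 CPM in GCG-only cells. Neither passed the test, and the groups overlapped for both. TTR, the alpha cell carrier protein, was at 76601, 70584 and 70724 CPM in insulin-rich cells and 75212, 72251 and 74759 CPM in GCG-only cells. Of 8 alpha cell factors tested, 1 was higher, FEV, a factor of endocrine progenitors and serotonin-related genes (log2 0.46 ± 0.12 SE, edgeR adjusted p = 0.0125), at 157, 194 and 151 CPM in insulin-rich cells and 114, 146 and 104 CPM in GCG-only cells. Over 18 alpha cell markers tested, 2 were higher (PCSK2 and FEV) and 1 lower (GC), with a median of 0.03. Of 9 pan-endocrine factors tested, 1 was higher, NEUROD1, the E-box factor of all islet endocrine cells, at 361, 306 and 255 CPM in insulin-rich cells and 263, 260 and 238 CPM in GCG-only cells (log2 0.36 ± 0.10 SE, edgeR adjusted p = 0.0315). GC was the 1 alpha cell marker called lower.

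Of 16 beta cell markers tested besides INS, 4 were higher and 0 lower, with a median of 0.62. Those were IAPP, UCN3, ERO1B and DLK1. UCN3, a peptide of mature beta cells that human alpha cells also make, was at 112 and 125 CPM in insulin-rich cells and 52.8 and 82.0 CPM in GCG-only cells (log2 0.79 ± 0.14 SE, edgeR adjusted p = 5.53e-06), with 32.1% of replicate 1 UMIs in 1 cell. It stood at 23.2 CPM in insulin-rich cells, against 26.3 CPM in GCG-only cells in replicate 3. IAPP had a log2 difference of 4.59, which was 0.80 and not called without the highest cell of each library, and DLK1 had 0.88, which was -1.12 without that cell. For DLK1, 1 cell held 36.4% of the UMIs in replicate 1 and 86.4% in replicate 2. UCN3 and ERO1B therefore were the 2 markers that did not rest on 1 cell.

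**Figure D4:**
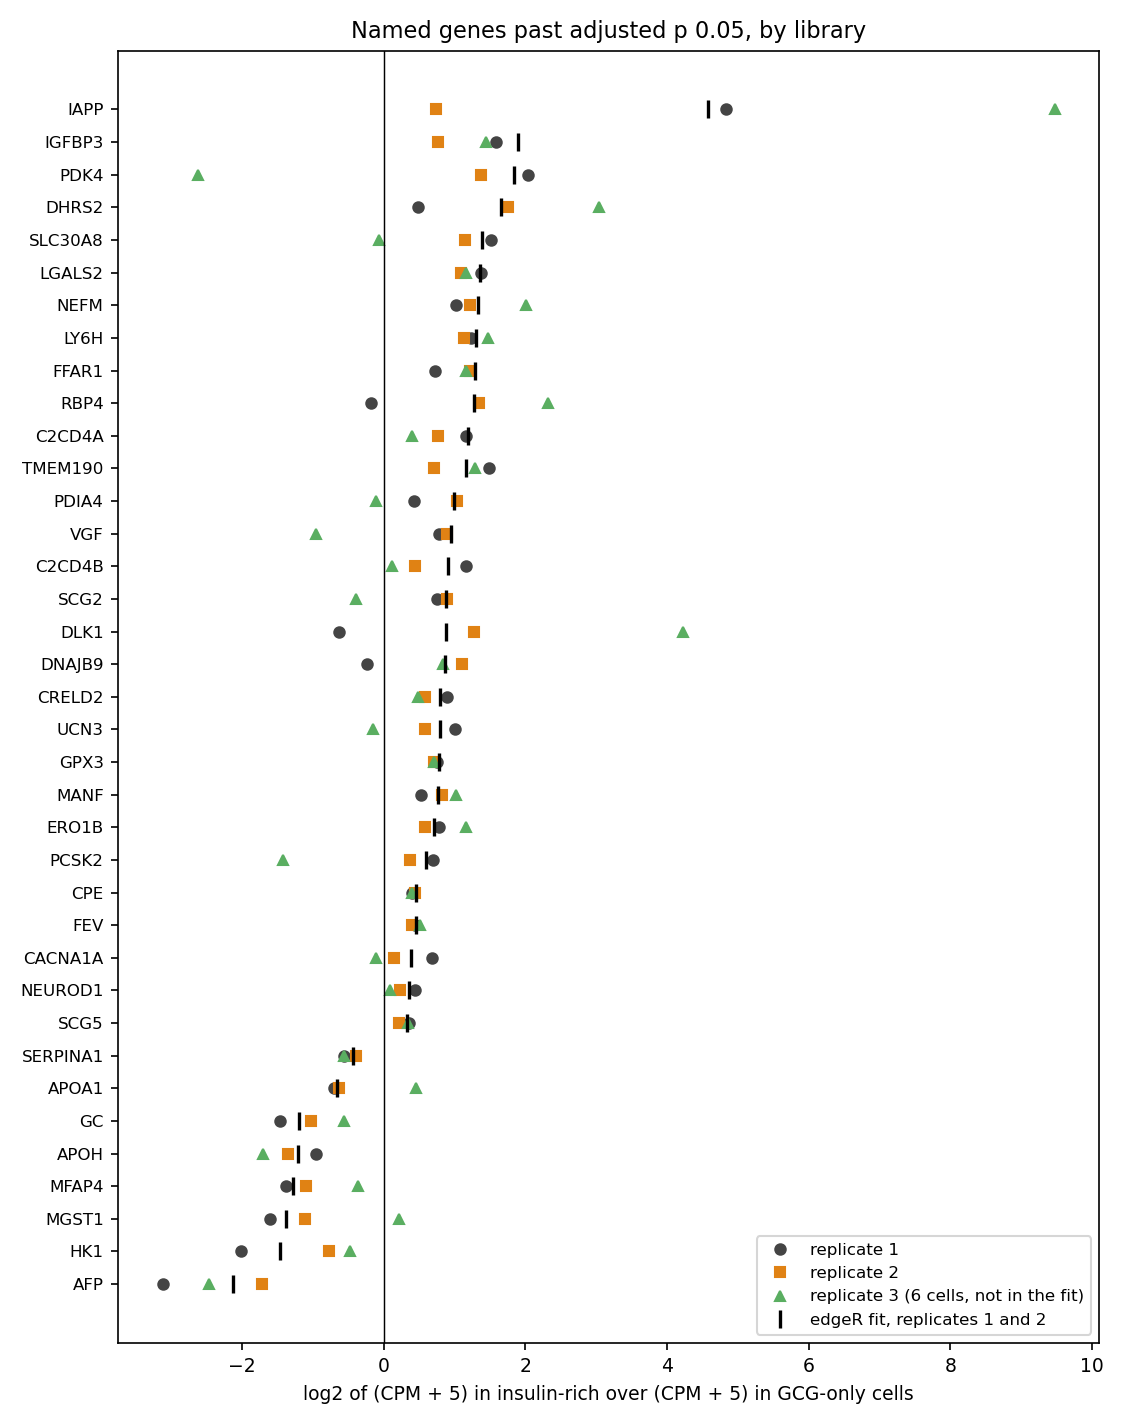
Log2 ratio of insulin-rich to GCG-only cells per library (x axis, from CPM plus 5) for named genes past adjusted p 0.05 in edgeR (rows), 1 point per library, with black bars for the edgeR fit of replicates 1 and 2; TPH1 and MEIS2, with 0 to 1 UMIs per library, are among the genes not drawn. Points of replicate 3, which has 6 insulin-rich cells and did not enter the test, scatter more widely; GC and APOH lie below 0 in all 3 libraries, and ERO1B, MANF and CRELD2 above 0 in all 3.

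Several genes outside the islet lists differed by a log2 of 1 or more. PDK4, the kinase that restrains pyruvate dehydrogenase, was at 110 and 81.0 CPM in insulin-rich cells and 23.0 and 28.1 CPM in GCG-only cells (log2 1.84 ± 0.17 SE, edgeR adjusted p = 1.85e-24). A single cell held 47.3% and 42.2% of its UMIs in replicates 1 and 2, and without those cells the difference was 1.34, while the 6 insulin-rich cells of replicate 3 held 0 UMIs, which allow up to 34.7 CPM, against 25.8 CPM in GCG-only cells. DHRS2, a short-chain dehydrogenase, was at 27.9, 120 and 208 CPM in insulin-rich cells and 18.4, 32.1 and 20.9 CPM in GCG-only cells (log2 1.65 ± 0.17 SE, edgeR adjusted p = 4.04e-19). DHRS2 was higher in each library, and 77.8% of its replicate 3 UMIs came from 1 cell. TMEM190, a small membrane protein, was at 135, 79.1 and 69.5 CPM in insulin-rich cells and 44.9, 46.3 and 25.5 CPM in GCG-only cells (log2 1.16 ± 0.15 SE, edgeR adjusted p = 2.29e-11), with 39.7% of replicate 1 UMIs in 1 cell. LY6H was at 95.6, 84.0 and 127 CPM in insulin-rich cells and 37.6, 35.6 and 42.5 CPM in GCG-only cells, with 66.7% of replicate 1 UMIs in 1 cell, and rose by 1.31 ± 0.16 (SE, edgeR adjusted p = 5.51e-13). LGALS2, a galectin, was at 49.8, 62.5 and 46.3 CPM in insulin-rich cells and 16.2, 26.6 and 17.8 CPM in GCG-only cells, with 32.0% of replicate 1 UMIs in 1 cell, and rose by 1.37 ± 0.20 (SE, edgeR adjusted p = 7.77e-09). GPX3, a secreted glutathione peroxidase, stood at 177, 190 and 139 CPM in insulin-rich cells and 104, 115 and 82.8 CPM in GCG-only cells (log2 0.78 ± 0.12 SE, edgeR adjusted p = 4.79e-08). TMEM190, LY6H, LGALS2 and GPX3 were higher in all 3 libraries.

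The receptor, channel and metabolic lists held few calls. Of 9 islet receptors tested, 1 was higher, FFAR1, the fatty acid receptor of beta cells, at 33.9, 41.0 and 34.7 CPM in insulin-rich cells and 18.4, 14.7 and 12.7 CPM in GCG-only cells (log2 1.28 ± 0.24 SE, edgeR adjusted p = 3.32e-05), with 41.2% of replicate 1 UMIs in 1 cell. Of 16 channel genes, 1 was higher, the calcium channel gene CACNA1A (log2 0.38 ± 0.11 SE, edgeR adjusted p = 0.0444). None of 16 exocytosis genes was called, with a median of 0.11. Of 13 glucose uptake and glycolysis genes, 1 was lower, the hexokinase gene HK1 (log2 -1.46, SE 0.35, edgeR adjusted p = 0.00513), from 1 and 12 UMIs in insulin-rich cells of replicates 1 and 2. HK1 is also 1 of the 8 tested genes of the list of disallowed or immature genes, where DLK1 was the 1 called higher. Of 10 diabetes-linked secreted and signalling genes tested, 5 were higher and 0 lower, with a median of 0.85: UCN3, IGFBP3, RBP4, C2CD4A and C2CD4B. None of these 5 was among the 16 genes that DESeq2 called higher. C2CD4A was at 51.8, 25.4 and 34.7 CPM in insulin-rich cells and 20.5, 12.9 and 25.0 CPM in GCG-only cells (log2 1.19 ± 0.25 SE, edgeR adjusted p = 0.000403), and C2CD4B rose by 0.91 ± 0.25 (SE, edgeR adjusted p = 0.0287), with 38.5% of C2CD4A and 33.3% of C2CD4B UMIs of replicate 1 in 1 cell each. These are paralogs, between which reads may be split. IGFBP3 and RBP4 had 10 and 11 UMIs and 4 and 27 UMIs in insulin-rich cells of replicates 1 and 2, with 70.0% of the 10 IGFBP3 UMIs and 2 of the 4 RBP4 UMIs of replicate 1 in 1 cell each.

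Of 8 hepatic markers tested, genes of plasma proteins made by the liver among them, 3 were lower in insulin-rich cells and 0 higher, with a median of -0.44. AFP, alpha-fetoprotein, stood at 15.9, 61.5 and 0 CPM in insulin-rich cells and 177, 213 and 22.6 CPM in GCG-only cells, and fell by 2.13 on the log2 scale (SE 0.16, edgeR adjusted p = 1.98e-36). The 0 UMIs of replicate 3 allow up to 34.7 CPM, the replicate 1 value is 8 UMIs, 6 of them from 1 cell, and 1 cell held 42.9% of the 63 UMIs of replicate 2. SERPINA1, alpha-1 antitrypsin, was at 2432, 2864 and 1865 CPM in insulin-rich cells and 3574, 3752 and 2752 CPM in GCG-only cells, and fell by 0.43 (SE 0.09, edgeR adjusted p = 0.000579). APOA1 fell by 0.66 (SE 0.13, edgeR adjusted p = 6.3e-05), at 104, 139 and 104 CPM in insulin-rich cells and 171, 218 and 74.5 CPM in GCG-only cells. SERPINA1 was lower in each library, AFP in replicates 1 and 2, and APOA1 was not lower in replicate 3.

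Outside the lists, 3 genes met the naming rule on the lower side. APOH, a plasma glycoprotein, was at 91.6, 68.3 and 57.9 CPM in insulin-rich cells and 182, 182 and 200 CPM in GCG-only cells, and fell by 1.21 (SE 0.14, edgeR adjusted p = 2.01e-14). MGST1, a microsomal glutathione transferase, was at 35.9 and 36.1 CPM in insulin-rich cells and 119 and 84.1 CPM in GCG-only cells, and fell by 1.38 (SE 0.18, edgeR adjusted p = 5.38e-11), while in replicate 3 it stood at 104 CPM in insulin-rich cells, against 89.2 CPM in GCG-only cells. MFAP4, a microfibril protein, was at 49.8, 37.1 and 162 CPM in insulin-rich cells and 137, 85.3 and 209 CPM in GCG-only cells, and fell by 1.28 (SE 0.17, edgeR adjusted p = 2.4e-10). APOH and MFAP4 were lower in each library.

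Collagen, proliferation and delta cell markers were scarce in insulin-rich cells. The collagen and stromal list summed to 7.81 to 46.3 CPM over the 3 libraries in insulin-rich cells, against 9.61 to 28.5 CPM in GCG-only cells and 12738 CPM or more in collagen cells, with 6 of its 10 genes, COL1A2 and DCN among them, at 0 in insulin-rich cells. The proliferation list summed to 0 to 25.4 CPM in insulin-rich cells and 21.3 to 43.8 CPM in GCG-only cells, with MKI67 and TOP2A at 0. The delta cell list without SST summed to 17.9 to 81.1 CPM in insulin-rich cells and 14.4 to 20.1 CPM in GCG-only cells, with HHEX at 0, and RBP4 was the 1 of 3 tested genes called higher (log2 1.27 ± 0.35 SE, edgeR adjusted p = 0.0278). The neural list summed to 144 to 208 CPM in insulin-rich cells and 104 to 132 CPM in GCG-only cells, with SOX2 at 0, and 1 of 3 tested genes, the neurofilament gene NEFM, was higher (log2 1.33 ± 0.20 SE, edgeR adjusted p = 3.12e-08), with 41.2% of replicate 1 UMIs in 1 cell. The hepatic list summed to 2583 to 3536 CPM in insulin-rich cells and 3119 to 4704 CPM in GCG-only cells, mostly through SERPINA1. The epsilon and PP cell list summed to 524 to 788 CPM in insulin-rich cells and 595 to 683 CPM in GCG-only cells, and the enterochromaffin list to 556 to 780 CPM in insulin-rich cells and 607 to 844 CPM in GCG-only cells. Of 9 epsilon and PP cell markers tested, 2 were lower and 0 higher; MEIS2, with 1, 0 and 1 UMIs in insulin-rich cells, was among the lower ones. Of 4 enterochromaffin markers tested, TPH1, the serotonin-synthesis enzyme, was called lower: 0 UMIs in replicates 1 and 2 make it at least 1.57-fold and at least 1.72-fold lower than in GCG-only cells, at a floor of 3 counts per library. TPH1 was near the floor in GCG-only cells too (9.38 and 5.05 CPM). In replicate 3, with 1 UMI in insulin-rich cells, it was not lower (log2 ratio 0.59 from CPM plus 5). None of the 4 duct and progenitor, 2 proliferation and 1 collagen genes tested was called. The part of these markers in the differences above was not tested.

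In cells with an INS share of 0.1% to 0.3%, the GC value lay below and the SLC30A8 and PDK4 values above those of GCG-only cells in each library, for PDK4 in replicate 1 by little. Cells with GCG at 5% or more were split by INS share at 0.1%, 0.3%, 1% and 2%, in which the lowest bin is the GCG-only set and the upper 2 bins are insulin-rich cells. The upper 2 bins therefore left out barcodes with at least as many SST as INS UMIs, which the lower bins kept. SLC30A8 stood at 50.4, 74.6, 95.7, 83.1 and 224 CPM from the lowest to the highest bin in replicate 1 and at 66.7, 93.6, 103, 141 and 205 CPM in replicate 2. In replicate 3, where only the 3 lowest bins held 10 or more cells, it stood at 73.0, 101 and 40.8 CPM. GC stood at 1039, 815, 541, 503 and 285 CPM in replicate 1, at 687, 468, 453, 431 and 253 CPM in replicate 2 and at 582, 490 and 372 CPM in the 3 lowest bins of replicate 3. GC was lower in every next bin of every library. SLC30A8 was higher in the highest bin than in the lowest in replicates 1 and 2, with 1 step down in replicate 1, and was lowest in the 19 cells of the third bin in replicate 3. PDK4 stood at 23.0, 24.6, 39.8, 95.6 and 136 CPM in replicate 1, at 28.1, 38.2, 56.9, 56.0 and 171 CPM in replicate 2 and at 25.8, 88.6 and 95.3 CPM in replicate 3. AFP stood at 177, 166, 131, 29.1 and 4.39 CPM in replicate 1, at 213, 177, 258, 27.2 and 63.3 CPM in replicate 2 and at 22.6, 41.2 and 0 CPM in replicate 3, and was ordered from bin to bin in replicate 1 but not in replicates 2 and 3. IRX2 stood at 410, 419, 408, 457 and 369 CPM in replicate 1 and 457, 446, 418, 426 and 361 CPM in replicate 2, with no single direction from bin to bin, and at 406, 386 and 327 CPM in replicate 3, lower in each next bin. The bins of replicate 1 held 518, 210, 103, 12 and 11 cells, those of replicate 2 held 467, 215, 132, 28 and 14, and those of replicate 3 held 822, 70, 19 and 3. Bins of under 20 cells were thinly filled: without them the series end at 0.3% to 1% in replicate 1, at 1% to 2% in replicate 2 and at 0.1% to 0.3% in replicate 3. In what is left GC was lower and SLC30A8 higher from each bin to the next. For SLC30A8 this follows from the limit of 20, as 10 cells was the minimum elsewhere. The limit of 20 drops the bins where SLC30A8 stepped down, of 12 cells in replicate 1 and 19 cells in replicate 3. The bins are a description with no test.

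**Figure D5:**
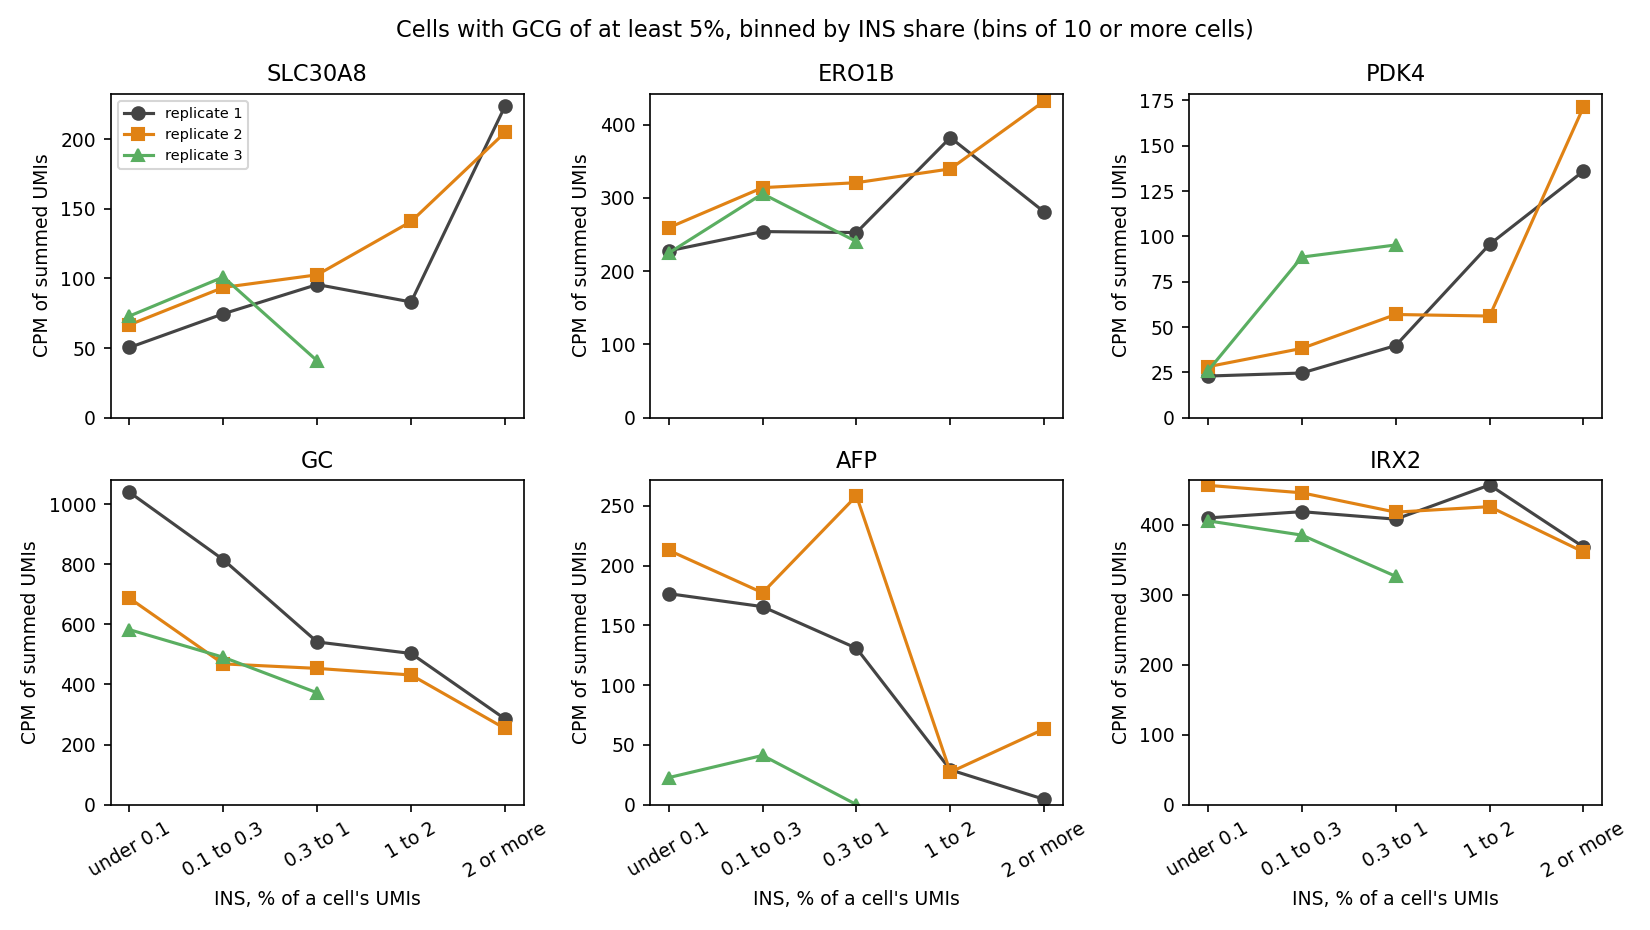
CPM (y axis) of SLC30A8, ERO1B, PDK4, GC, AFP and IRX2 in cells with GCG at 5% or more, by INS share of the cell (x axis, bins in percent), 1 line per library and only bins of at least 10 cells. GC is lower in each next bin, down to 285 and 253 CPM in the highest bin of replicates 1 and 2, SLC30A8 reaches 224 and 205 CPM there, and IRX2 does not move in 1 direction in replicates 1 and 2 and is lower in each next bin of replicate 3.

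To see whether these differences depended on the insulin-rich cells low in glucagon, insulin-rich cells with GCG at 5% or more (23, 42 and 3 by library) were compared with the same GCG-only cells. This comparison shares its GCG-only cells and most of its insulin-rich cells with the one above. Among 12541 genes tested by edgeR in replicates 1 and 2, 101 were higher (0.805%) and 51 lower (0.407%). Without the block 9 were higher and 3 lower, and DESeq2 called 15 higher and 10 lower. With replicate 1 or replicate 2 left out, 5 and 3 were higher and 1 was lower in either case. Log2 differences in these cells were 1.46 for SLC30A8 (1.38 in all insulin-rich cells), 2.03 for PDK4 (1.84), 0.97 for SCG2 (0.88), 1.29 for TMEM190 (1.16) and 0.88 for GPX3 (0.78). On the lower side they were -2.65 for AFP (-2.13), -1.04 for GC (-1.19) and -1.09 for APOH (-1.21). These 8 genes kept their direction in the cells that held both hormones, which make up 65 of the 76 insulin-rich cells of replicates 1 and 2.

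Insulin-rich cells with GCG at 5% or more are called double-positive cells. In them, NKX6-1, MAFA and SIX2 gave 0 UMIs, and PAX4 had a log2 difference of 0.15, against 1.78 in all insulin-rich cells. Of 17 beta cell markers tested, 3 were higher (IAPP, UCN3 and ERO1B) and 1 lower, the integrin gene ITGA1 (log2 -0.89, SE 0.25, edgeR adjusted p = 0.033), with a median of 0.07. IAPP stood at 1054, 2.33 and 0 CPM in the double-positive cells and 29.7, 6.24 and 2.55 CPM in GCG-only cells, and its log2 difference of 4.65 became -1.49 without the highest cell of each library. PDX1 stood at 17.1, 21.0 and 27.7 CPM in double-positive cells and 7.80, 11.9 and 7.76 CPM in GCG-only cells (log2 0.98 ± 0.37 SE, edgeR adjusted p = 0.279). Of 16 unfolded protein response genes, 7 were higher and 0 lower by edgeR, and none was among the 15 genes that DESeq2 called higher. Of 8 hepatic markers 4 were lower, with APOB (log2 -0.87, SE 0.20, edgeR adjusted p = 0.0029) added to AFP, APOA1 and SERPINA1. KCNQ1OT1, a nuclear non-coding RNA, and SORD, sorbitol dehydrogenase, had log2 differences of -1.04 and -1.02. In replicate 3, with 3 such cells, 42 of the 101 higher genes were also higher (41.6%, beside 30.6% of all genes tested) and 37 of the 51 lower genes were also lower (72.5%, beside 69.4%).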

How the data were processed

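The deposited matrices held whole UMI counts per gene and barcode for 33538 features, as deposited by the authors. The submitters' processing notes name Cell Ranger 4.0.0 and GRCh38, and the labels' protocols name the 10x Genomics 3' v3 kit. The values carried no normalization. Neither the cell-calling settings nor the annotation release is given in the sources used here. The limits of 1000 genes and 20% mitochondrial UMIs, and all later steps, were added here. The insulin-rich rule, the gene lists and the tests were chosen with earlier results of these data known.

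UMIs were summed per library and cell set where both sets held at least 10 cells, which left replicates 1 and 2. The sums were tested with edgeR 4.0.16 (R 4.3.3) by quasi-likelihood, with TMM scaling, edgeR's expression filter and library as a block, because both sums of a library come from the same preparation. INS, GCG and SST stayed out of the test. Adjusted p-values are Benjamini-Hochberg values over all genes tested. DESeq2 1.42.0, other limits and scalings, and leaving out libraries were alternatives. On simulated counts for 12282 genes of the comparison of all insulin-rich cells, 94 of 100 genes changed by a log2 of 1 and 100 of 100 changed by a log2 of 2 were recovered. Only genes above 50 CPM in GCG-only cells were changed, and the same spread was assumed for every gene. The recovery therefore does not describe genes at lower levels, such as PDX1 and PAX4, or genes with most UMIs in 1 cell. CPM are a set's counts scaled to a total of 1000000.

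Named genes were the markers, all islet hormones and beta cell factors, up to 4 called genes per other list with the largest change, and outside the lists, up to 8 genes called higher and 8 called lower that reached 50 CPM and a log2 difference of 1. The share of a gene's UMIs in its highest cell is given for the genes described at length, where it passed 30% in replicates 1 or 2. In replicate 3, 48 of the 50 named genes with UMIs passed that share. Collagen cells were barcodes that passed the same limits with COL1A1, COL1A2 and COL3A1 together at 0.5% or more of UMIs. Scanpy 1.11.5 ran Scrublet, and called barcodes were kept and left out only in an alternative. Gene positions came from GENCODE, which held 33456 of the 33538 features, and promoters from RefSeq; both hormone genes matched. Some named genes are not reported here.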

Additional observations from a re-analysis of the deposited data

Results flagged for a closer look

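Barcodes over the mitochondrial limit also met the insulin rule, which is a signal outside the cells reported above. Among barcodes with at least 1000 genes and over 20% mitochondrial UMIs, 9 of 739, 12 of 313 and 12 of 992 in replicates 1, 2 and 3 held INS at 1% or more and above SST (1.22%, 3.83% and 1.21%). GCG was at 5% or more in 9, 7 and 7 of them, and their median depth was 20729, 22842.5 and 14179.5 UMIs. In replicate 3 these 12 barcodes outnumbered the 6 insulin-rich cells within the limit. Whether damaged cells had a part in this was not tested.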

How the results depend on the processing

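The counts of called genes depended on how the spread was estimated, since 4 sums from 2 libraries enter the test. For all insulin-rich cells (113 higher, 57 lower), the fit with no replicate block gave 12 and 4, DESeq2 16 and 8, thinning to 5000 UMIs 11 and 15, and an INS limit of 2% 35 and 31. Without the expression filter 74 genes were higher and 61 lower, a mitochondrial limit of 30% gave 133 and 78, and over all 3 libraries, a setting chosen after the data were seen, 70 were higher and 35 lower. For insulin-rich cells with GCG at 5% or more (101 and 51), no replicate block gave 9 and 3, DESeq2 15 and 10, thinning 12 and 15, the 2% limit 33 and 29, and all 3 libraries 49 and 18. Leaving out replicate 1 or 2 gave 11 to 17 higher and 6 to 8 lower for all insulin-rich cells, and 3 to 5 higher and 1 lower for those with GCG; leaving out replicate 3 changed nothing, as it was not in the test. The cause of these changes was not tested.

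Of 95 gene results, 89 kept their direction and side of the threshold with DESeq2-style size factors, 94 without the 3 hormones in the totals and 93 without Scrublet calls. Fewer did so with DESeq2 (46 of 95), without the block (34 of 95), thinned (32 of 88), without replicate 1 (28 of 94) and without replicate 2 (26 of 95). At an INS limit of 0.5% the mean share of insulin-rich cells over libraries was 5.86%, beside 2.51% at 1%. Thinned, the mean shares with IAPP and PDX1 UMIs were 10.5% and 10.6%.

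Log2 differences that turned sign in all insulin-rich cells were, after thinning, GHRL 0.76, MNX1 1.27, RFX6 -0.10, TSHZ1 -0.23 and DLK1 -0.18. At an INS limit of 0.5% they were GHRL 0.12 and NKX2-2 0.043, and at 2% IAPP -0.053 and MNX1 0.38. At a mitochondrial limit of 30% they were MNX1 0.079, ESRRG 0.021 and APOA1 0.11. MNX1 was 0.018 with no replicate block, 0.081 with DESeq2 and 0.0094 at 2000 genes, TSHZ1 was -0.013 without the filter, and DLK1 was -1.12 without its highest cell, a setting also chosen after the data were seen. In cells with GCG at 5% or more, IAPP was -2.98 at the 2% limit and -1.49 without its highest cell, and APOA1 was 0.20 at the 30% limit. With replicate 1 or 2 left out, values that turned sign ranged from -1.56 to 0.72 for GHRL, -0.39 to 0.40 for MNX1, -0.97 to 2.32 for PAX4, -0.012 to 0.040 for NKX2-2, -0.079 to 0.018 for PAX6 and -0.50 to 0.023 for ESRRG, and NPY was 0.25 without replicate 2. In cells with GCG at 5% or more they ranged from -1.41 to 4.88 for IAPP, -0.51 to 2.09 for RBP4, -0.0097 to 0.13 for NEUROD1, -0.16 to -0.068 for SCG5 and -0.40 to 1.28 for DNAJB9.

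A mitochondrial limit of 10% left no library with 10 insulin-rich cells, and neither the insulin-dominant nor the low-GCG cells reached 10 in any library, so these comparisons could not be fitted.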
